A study of Rattus norvegicus with 6 samples.

Results

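Keratins 7, 8, 18, 19, 20 and 23 are intermediate filament proteins of epithelial cells, and their 6 genes were followed in the livers of fibrotic rats. They were taken from the table of genes by samples by symbol. All 6 were among its 16209 rows, which hold 27 keratin rows in all. Bulk RNA sequencing had been done on 6 liver samples. In 3 of them the fibrotic rat had received 10 mg/kg/day of ginkgetin, a biflavone from plants, and in the other 3 it had received vehicle. Both groups carried the fibrosis. No group without fibrosis is analysed here, and the sources used here do not give the rats' strain and age, the agent that caused the fibrosis or the length of treatment. The question is how ginkgetin changes gene expression in a liver that is already fibrotic.

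Keratin filaments are built from pairs of a type I and a type II chain, and a chain without its partner is unstable. Keratin 8 (type II) and keratin 18 (type I) are the pair of hepatocytes and are also made by bile duct cells. Bile duct cells add keratin 7 (type II) and keratin 19 (type I), which are standard stains for bile ducts and for the ductular reaction of injured liver. Keratin 23 (type I) is known from human and mouse liver as a stress-induced keratin of reactive ducts. Keratin 20 (type I) is best known as a keratin of the intestinal lining.

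The libraries held 13372367 to 14933853 reads assigned to genes. Values are normalized read counts, and differences are ginkgetin minus vehicle on the log2(value + 1) scale, which understates the change of genes with few reads. One vehicle library, replicate 3, differed from the rest. Alb, the gene of albumin, took 2.89% of its normalized reads, against 6.56% to 12.11% in the ginkgetin libraries and 9.44% and 7.77% in vehicle replicates 1 and 2. Values without that library are therefore given beside the results. Whether the replicates were different animals is not said in the labels, and a p-value here reflects only how these samples vary.

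Transcripts of the duct keratins Krt7, Krt19 and Krt23 were lower in all 3 ginkgetin livers than in any vehicle liver. Transcripts of the hepatocyte pair Krt8 and Krt18, and of Krt20, overlapped between the groups. No keratin passed the Benjamini-Hochberg threshold of 0.05 over the 14639 genes tested with limma, where 2 genes passed (0.0137%). At an unadjusted limma p of 0.05, 3 of the 6 keratins were lower and 0 higher, against 13.2% and 7% of all genes. With quantile scaling and with equal library totals Krt8 was lower at that p as well, which made 4 of 6. Over all genes, 1397 of 14639 were lower at that p with quantile scaling. With equal library totals 2941 were, of the 14583 genes that the main fit also tested, and their median log2 difference was -0.53. Without vehicle replicate 3 the keratin counts were again 3 and 0, against 10% lower, 5.68% higher and 15.7% in either direction. All 6 keratins had lower means with ginkgetin, as had 51.4% of all genes. Their median log2 difference was -1.83, and -1.56 without vehicle replicate 3, against -0.02 over all genes. All 6 keratins had passed the filter on low values.

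Krt8 had 5851, 2958 and 3868 normalized reads in ginkgetin replicates 1 to 3 and 5192, 9984 and 6376 in vehicle replicates 1 to 3. Ginkgetin replicate 1 lay between vehicle replicates 1 and 3, and vehicle replicate 2 was the highest. The mean was 4226 ± 1479 with ginkgetin and 7184 ± 2496 with vehicle (SD, n = 3 each). The log2 difference was -0.77 (SE 0.443, 95% interval -1.79 to 0.25, limma adjusted p = 0.355), and -0.83 without vehicle replicate 3. It was -1.35 with quantile scaling (limma unadjusted p = 0.0246, adjusted p = 0.242), so its size depends on the scaling. With equal library totals it was -1.29 (limma unadjusted p = 0.0194, adjusted p = 0.154), but -0.76 relative to the median of all genes at that setting.

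Krt18, the type I partner, had 6029.9, 2941 and 3908 normalized reads with ginkgetin and 5102, 8082 and 3183 with vehicle. The groups overlapped, and vehicle replicate 3 was the second lowest of the 6 libraries. Its log2 difference was -0.31 (SE 0.476, 95% interval -1.40 to 0.79, limma adjusted p = 0.735), and -0.64 without vehicle replicate 3. With quantile scaling it was -0.80. With equal library totals it was -0.83, but -0.30 relative to the median of all genes at that setting. It was 0.03 without vehicle replicate 2, the highest library, so its direction rests on that library.

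**Figure D1:**
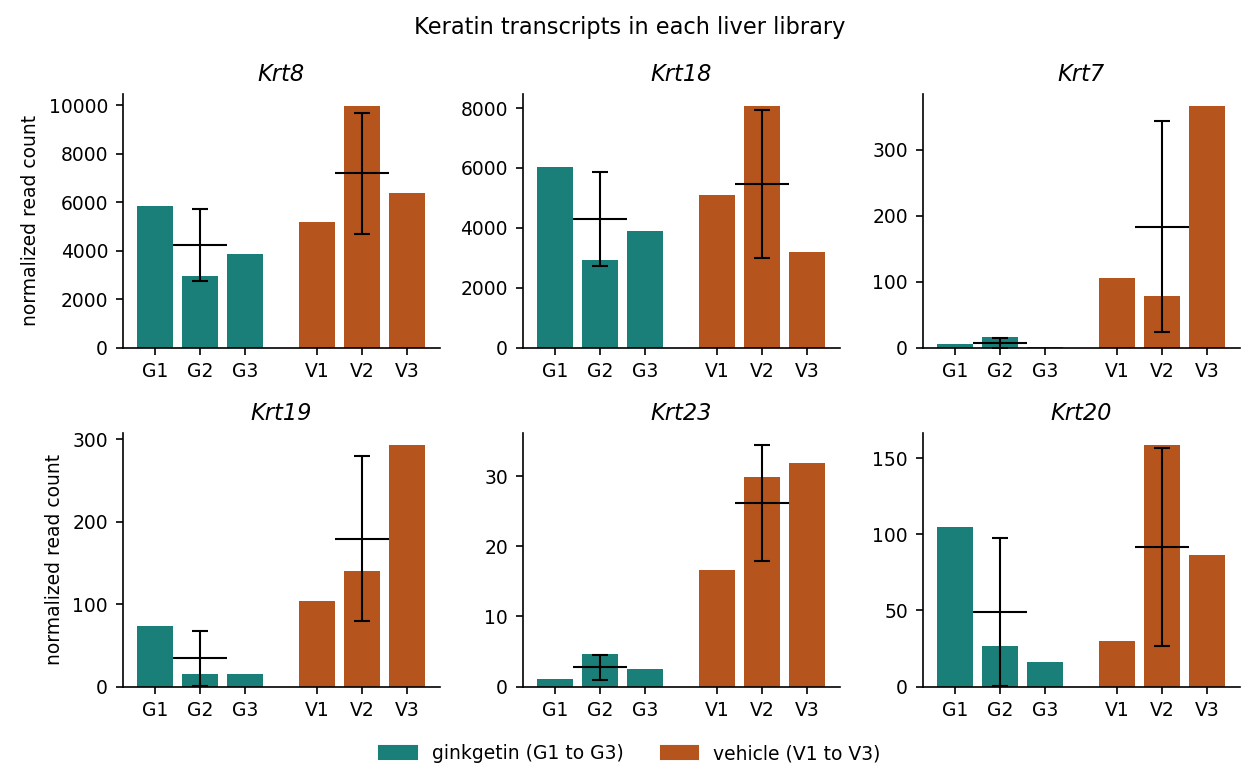
Normalized read counts (vertical axis, a separate scale for each gene, starting at 0) of the 6 keratins in ginkgetin libraries G1 to G3 and vehicle libraries V1 to V3. Bars are single libraries, and the black mark and whiskers are the group mean ± SD, with the lower whisker ended at 0. Krt7, Krt19 and Krt23 bars are all shorter in the ginkgetin group, and Krt8, Krt18 and Krt20 bars overlap.

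Krt8 and Krt18 reads were almost equal in number in all 3 ginkgetin libraries and not in all vehicle libraries. There were 0.97, 1.01 and 0.99 reads of Krt8 for each read of Krt18 in ginkgetin replicates 1 to 3, against 1.02, 1.24 and 2.0 in vehicle replicates 1 to 3. This ratio does not depend on the scaling of a library. Reads were not corrected for transcript length, so equal numbers of reads need not mean equal numbers of transcripts.  Krt8 made up 49.2%, 50.1% and 49.7% of the reads of the pair with ginkgetin and 50.4%, 55.3% and 66.7% with vehicle. The exact binomial 95% intervals were 48.3% to 50.2%, 48.8% to 51.5% and 48.5% to 51.0% with ginkgetin. They were 49.4% to 51.5%, 54.6% to 55.9% and 66.0% to 67.4% with vehicle, and they cover counting error only. Equal numbers lay inside the interval in all ginkgetin libraries and in vehicle replicate 1, and below it in vehicle replicates 2 and 3. The mean log2 ratio of Krt8 to Krt18 was -0.02 ± 0.03 with ginkgetin and 0.44 ± 0.50 with vehicle (SD, n = 3 each), a difference of -0.46, and of -0.18 without vehicle replicate 3. With all members counted by type, type II reads (Krt7 and Krt8) per type I read (Krt18, Krt19, Krt20 and Krt23) numbered 0.94, 1.0 and 0.98 with ginkgetin and 1.01, 1.20 and 1.88 with vehicle. The extra Krt8 reads of vehicle replicate 3 were therefore not matched by reads of the other type I members. RefSeq names 7 further copies of Krt18, 6 of them pseudogenes, and 1 pseudogene of Krt8. None of these 8 has a row in the table, and the sources used here do not say how reads shared with such copies were counted, so the levels of both genes are uncertain to that extent.

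**Figure D2:**
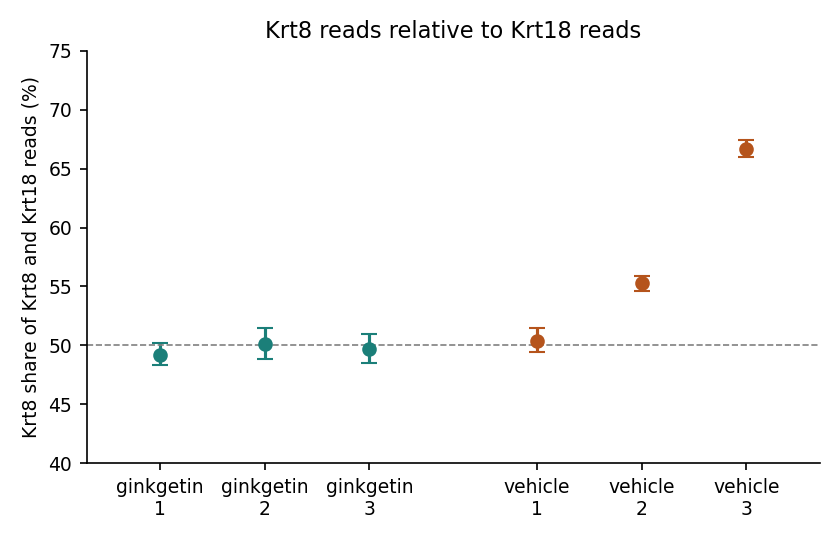
Share of Krt8 among the reads of Krt8 and Krt18 (vertical axis, percent, shown from 40 to 75) in each library. Whiskers are exact binomial 95% intervals and the dashed line marks equal numbers of reads, not corrected for transcript length. The ginkgetin libraries and vehicle replicate 1 lie near the line, at 49.2% to 50.4%, and vehicle replicates 2 and 3 lie at 55.3% and 66.7%.

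The genes of this pair are neighbours on rat chromosome 7, with no other protein-coding gene between them in RefSeq, and they are transcribed away from each other. Krt20 and Krt23 are neighbours among the type I genes on chromosome 10, are read from the same strand, and differ below in whether the groups overlap. The sequence before the annotated start of these 4 genes is shown because the 2 neighbouring pairs can then be compared. It is from RefSeq, build GRCr8, read 5′ to 3′ on the gene's strand. For Krt18, Krt20 and Krt23 it is the 120 bases that end just before the start. The annotated start of Krt8 is its start codon, so only bases 120 to 81 before it are shown. Capitals mark matches to motifs searched for on both strands of the 120 bases of each gene. The TATA box was searched for as TATAAA, the GC box as GGGCGG, the box known to bind the factor NF-Y as CCAAT, and the site of AP-1 factors as TGANTCA.
Krt8, chr7:135010420-135010459, minus strand: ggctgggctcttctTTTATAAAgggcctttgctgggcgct
Krt18, chr7:135036048-135036167, plus strand: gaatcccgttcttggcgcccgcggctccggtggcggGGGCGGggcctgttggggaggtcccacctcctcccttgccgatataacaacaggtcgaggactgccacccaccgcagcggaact
Krt20, chr10:84890286-84890405, minus strand: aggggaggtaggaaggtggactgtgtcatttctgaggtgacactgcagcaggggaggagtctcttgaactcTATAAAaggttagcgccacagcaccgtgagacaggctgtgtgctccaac
Krt23, chr10:84946930-84947049, minus strand: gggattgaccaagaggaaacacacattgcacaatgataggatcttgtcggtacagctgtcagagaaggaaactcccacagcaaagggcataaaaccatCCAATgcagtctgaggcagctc
Only the TATA box was found in more than 1 of the 4 genes, in Krt8 and Krt20. In Krt8 it was read on both strands in overlapping letters, 106 to 99 bases before the start, and in Krt20 at 49 to 44 bases. Krt18 had a GC box at 84 to 79 bases and no TATAAA letters, and Krt23 had the NF-Y letters at 22 to 18 bases. Only exact letters were searched for, so similar letters in any of these genes are not marked. The AP-1 letters were in none of the 4. Among 33469 RefSeq promoters of this length, 6.66% held the TATA letters, 23.7% the GC box, 19.9% the NF-Y letters and 3.01% the AP-1 letters. A match describes letters and does not show that a factor binds there.

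Krt7, the type II keratin of bile ducts, showed the largest difference of the 6. It had 5.53, 16.2 and 1.24 normalized reads in ginkgetin replicates 1 to 3, or 5, 14 and 1 reads before scaling. It had 106, 78.2 and 367 normalized reads in vehicle replicates 1 to 3. Every ginkgetin value was below the lowest vehicle value, and vehicle replicate 3 was the highest. The log2 difference was -4.53 (SE 0.861, 95% interval -6.51 to -2.55, limma adjusted p = 0.0834), and -3.86 without vehicle replicate 3. Without vehicle replicate 1 it was -4.76 with a limma adjusted p of 0.0424, past the threshold, as were 696 genes at that setting. With each other library left out the limma adjusted p of Krt7 was 0.0745 to 0.259.

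Krt19, the type I keratin of bile ducts, had 73.0, 15.0 and 14.8 normalized reads with ginkgetin and 104, 141 and 293 with vehicle. The groups did not overlap, although ginkgetin replicate 1 lay near vehicle replicate 1. The log2 difference was -2.62 (SE 0.68, 95% interval -4.19 to -1.06, limma adjusted p = 0.115), and -2.20 without vehicle replicate 3.

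Krt23 was a gene of few reads, with 1, 4 and 2 reads before scaling in the ginkgetin libraries and 14, 36 and 52 in the vehicle libraries. Normalized, these were 1.11, 4.63 and 2.47 with ginkgetin and 16.6, 29.9 and 31.9 with vehicle. The groups did not overlap, and vehicle replicate 3 was close to vehicle replicate 2. The log2 difference was -2.92 (SE 0.634, 95% interval -4.38 to -1.46, limma adjusted p = 0.0936), and -2.76 without vehicle replicate 3. With a pseudocount of 5 in place of 1 it was -2.00, so the size of this difference depends on the number added before taking logs.

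Non-overlap with the ginkgetin livers lower held for these 3 of 6 keratins, against 16.1% of all genes tested. With 3 against 3 libraries the exact two-sided permutation p of a single gene cannot go below 0.1, and it was 0.1 for each of Krt7, Krt19 and Krt23. In bulk liver, fewer duct cells and less keratin RNA per duct cell cannot be told apart.

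Krt20 varied more within each group than between them. It had 105, 26.6 and 16.1 normalized reads with ginkgetin and 29.7, 159 and 86.5 with vehicle. Ginkgetin replicate 1 was above vehicle replicates 1 and 3. The log2 difference was -1.03 (SE 0.812, 95% interval -2.90 to 0.83, limma adjusted p = 0.486), was -0.93 without vehicle replicate 3, and ran from -1.80 to -0.48 as single libraries were left out. The intestinal markers with the most reads are given for comparison. Vil1 is an actin bundler of microvilli that bile duct cells also carry. It had 3.32, 6.94 and 0 normalized reads with ginkgetin and 17.8, 21.6 and 71.2 with vehicle (log2 difference -3.27). Vil1 met the filter on low values only with vehicle libraries counted, so its p-value is not given, and it is among the lower markers counted below. Cdh17, the liver-intestine cadherin, had 458, 45.1 and 382 with ginkgetin and 415, 84.8 and 486 with vehicle. Fabp2, a fatty acid binding protein (log2 difference 0.08), and Tff3, a trefoil peptide (-0.44), overlapped. Of 4 markers tested 3 had lower means, and 2 with quantile scaling. The sum of the list, most of it Cdh17 in every library, ran from 74.0 to 517 with ginkgetin and from 148 to 605 with vehicle. Their part in the Krt20 values was not tested.

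**Figure D3:**
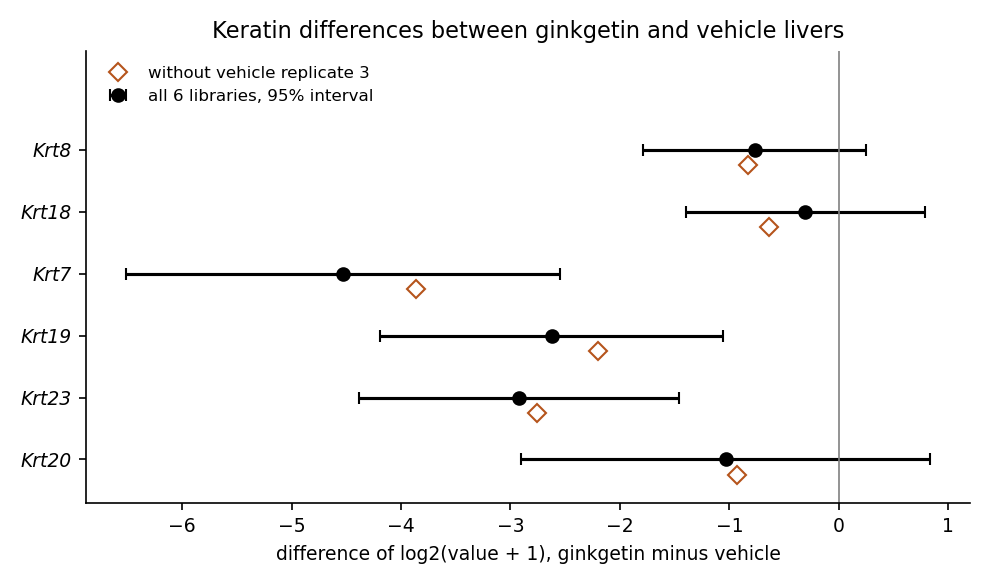
Difference of log2(value + 1) between ginkgetin and vehicle livers (horizontal axis) for each keratin. Filled points are the limma estimate from all 6 libraries with its 95% interval, and open diamonds are the estimate without vehicle replicate 3. The intervals of Krt7, Krt19 and Krt23 lie below 0, and those of Krt8, Krt18 and Krt20 include it.

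The duct keratins were next set against Krt8 and Krt18 of the same library, which both epithelia make. Krt7 reads per 1000 Krt18 reads numbered 0.917, 5.51 and 0.317 with ginkgetin and 20.7, 9.67 and 115 with vehicle. Krt19 gave 12.1, 5.11 and 3.80 with ginkgetin and 20.5, 17.4 and 92.2 with vehicle. For Krt23 the figures were 0.183, 1.57 and 0.633 with ginkgetin and 3.26, 3.70 and 10.0 with vehicle. Each of these ratios was lower in every ginkgetin library than in any vehicle library, and each was highest in vehicle replicate 3. That library was also the one with the most Krt8 per Krt18. Per 1000 Krt8 reads, Krt7 gave 0.945, 5.48 and 0.320 with ginkgetin and 20.3, 7.83 and 57.6 with vehicle, so the order of the libraries did not change. Krt20 per 1000 Krt18 reads overlapped, at 17.4, 9.05 and 4.12 with ginkgetin and 5.81, 19.7 and 27.2 with vehicle.

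As one measure, the mean log2(value + 1) of Krt7, Krt19 and Krt23 minus that of Krt8 and Krt18 was -9.21, -7.99 and -9.61 with ginkgetin and -6.47, -7.00 and -4.88 with vehicle. The group means were -8.94 ± 0.84 and -6.12 ± 1.10 (SD, n = 3 each), a difference of -2.82, and of -2.20 without vehicle replicate 3. This difference has no test, because the members were chosen with results known. The duct keratin mean alone differed by -3.36 and the mean of Krt8 and Krt18 by -0.54.

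**Figure D4:**
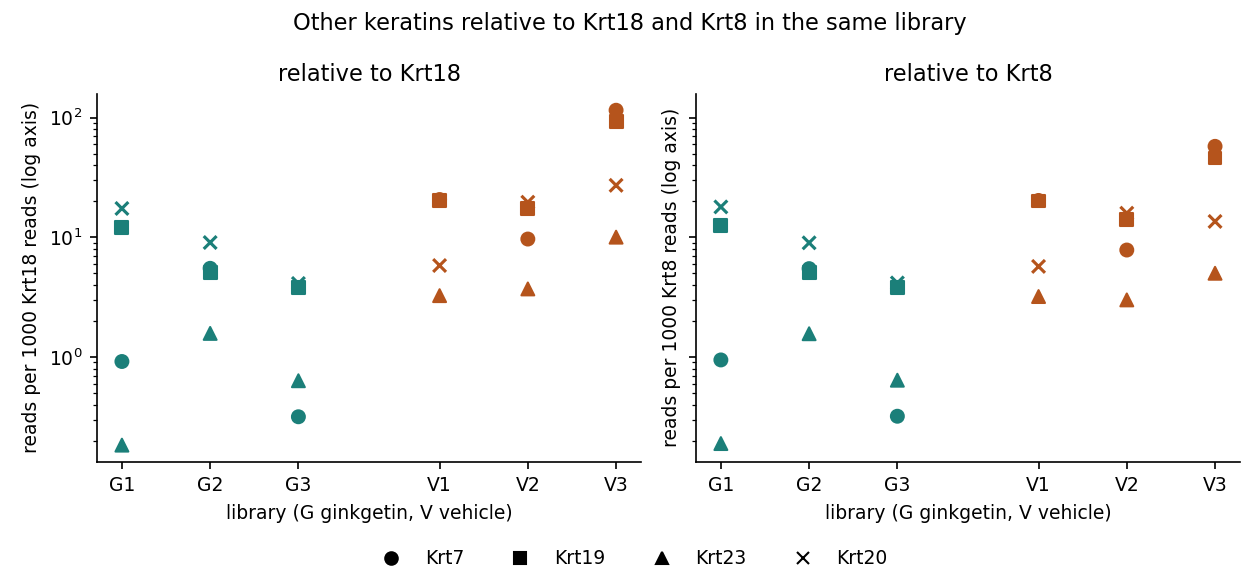
Reads of Krt7, Krt19, Krt23 and Krt20 per 1000 Krt18 reads (left) and per 1000 Krt8 reads (right) in each library, on log axes. Krt7, Krt19 and Krt23 lie lower in ginkgetin libraries G1 to G3 than in vehicle libraries V1 to V3 in both panels, and Krt20 overlaps.

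Other genes of bile duct cells were lower beside the duct keratins. Of 13 tested cholangiocyte markers that are not keratins, 12 had lower means with ginkgetin, against 51.4% of all genes. At an unadjusted limma p of 0.05, 11 were lower, against 13.2% of all genes. Their median log2 difference was -2.22 against -0.02 over all genes. Without vehicle replicate 3 the median was -1.97, and 12 were lower at that p, against 10% of all genes. Of these, 4 were past an adjusted p of 0.05 in limma, as were 84 of all 14639 genes. Their summed level ran from 1880.3 to 2601 normalized reads with ginkgetin and from 4707 to 24762 with vehicle. Most of the upper end came from Spp1, osteopontin, with 226, 46.3 and 14.8 normalized reads with ginkgetin and 612, 372 and 18034 with vehicle. Epcam, an adhesion protein of duct cells (log2 difference -1.88), and Anxa4, an annexin (-1.21), were lower in every ginkgetin library, and Slc4a2, an anion exchanger (0.22), overlapped.

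Relative to the mean of these markers in the same library, Krt19 lay at -0.56, -1.71 and -1.73 log2 units with ginkgetin and at -1.19, -1.11 and -0.73 with vehicle. The groups overlapped, and the difference was -0.32. Krt23 differed by -0.62 and overlapped. Krt7 lay at -4.06, -1.61 and -4.56 with ginkgetin and at -1.17, -1.95 and -0.41 with vehicle, a difference of -2.23, with ginkgetin replicate 2 inside the vehicle range. Krt8 and Krt18 lay higher against these markers in every ginkgetin library, by 1.53 and 1.99. The marker mean includes Spp1, whose value in vehicle replicate 3 was far above those in the other libraries.

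Hepatocyte and mesothelial markers, whose cells also make some of these keratins, are given for comparison. All 14 hepatocyte markers had higher means with ginkgetin, but 11 with quantile scaling and 12 with equal library totals. Their median log2 difference was 1.19, and 0.47 without vehicle replicate 3, when 12 were higher. Alb (1.20) and Tf, transferrin (0.51), overlapped, and Serpina1, a protease inhibitor (1.17), and Ttr, transthyretin (1.58), did not. Without vehicle replicate 3 these log2 differences were 0.43 for Alb, -0.05 for Tf, 0.51 for Serpina1 and 0.82 for Ttr. With quantile scaling they were -0.30 for Alb, -0.04 for Tf, 0.40 for Serpina1 and 0.85 for Ttr, and with equal library totals Tf was at -0.01. Their sum ran from 1993571 to 3105246 normalized reads with ginkgetin and from 475472 to 2461404 with vehicle. Krt8 and Krt18, which hepatocytes make, had means on the other side. Mesothelial cells line the liver surface and carry Krt7, Krt8, Krt18 and Krt19. Of 6 tested mesothelial markers 4 had lower means, but 3 with quantile scaling, and the sum of the list ran from 166 to 404 with ginkgetin and from 497 to 966 with vehicle. In the vehicle libraries most of this was Msln, mesothelin, with 21.0, 26.6 and 1.24 normalized reads with ginkgetin and 300.1, 725 and 488 with vehicle (log2 difference -5.42, limma adjusted p = 0.0688). Gpm6a, a membrane glycoprotein that made up most of the sum in the ginkgetin libraries, differed by 0.76. Wt1, a transcription factor, differed by -2.17 (-1.23 without vehicle replicate 3). Upk3b had 1.11, 20.8 and 7.42 normalized reads with ginkgetin and 0, 21.6 and 0.614 with vehicle (log2 difference 1.14), and overlapped. Bnc1, also a transcription factor and named after its values were seen, was at 0 in 5 of 6 libraries. The part of these cells in the keratin values was not tested.

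Among the 21 other keratin rows of the table, 13 were tested. Of these, 10 had lower means with ginkgetin, against 51.4% of all genes (median -0.70, and 7 of 13 lower with quantile scaling). The 3 with an unadjusted p under 0.05, Krt17, Krt80 and Krt77, met the filter on low values through the vehicle libraries, so that no other direction was open to them and their p-values are not given. All 3 are counted among the 10 lower and in the median. Krt17, a type I keratin of basal and injured epithelia, was at 0 reads in the 3 ginkgetin libraries and at 20.2, 12.5 and 15.3 normalized reads with vehicle. If each ginkgetin library is given 3 reads, the limit that a count of 0 allows by counting error alone, it was at least 4.57-fold lower. Krt80, a type II keratin, had 0, 1.16 and 0 normalized reads with ginkgetin and 3.56, 6.65 and 18.4 with vehicle. Krt77 was at 0 with ginkgetin and at 3.56, 1.66 and 1.23 with vehicle, too few reads for a fold. Krt10, a keratin of stratified epithelia, overlapped (log2 difference -0.70). The basal keratin Krt14, named after its values were seen, had reads in vehicle replicate 2 alone. Of 3 tested squamous epithelium markers 3 had lower means, with a list sum of 97.7 to 158.5 with ginkgetin and 186 to 358 with vehicle, of which Krt10 made up the most. Exocrine pancreas markers, 5 of which have a row, had 2 tested, 1 higher and 1 lower, and their sum ran from 16.1 to 94.9 with ginkgetin and from 14.2 to 38.7 with vehicle.

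Desmosomes and hemidesmosomes anchor keratin filaments at the cell edge. Of 15 such genes, all tested, 8 had lower and 7 higher means (median -0.37). The split was 11 lower and 4 higher without vehicle replicate 3 and with equal library totals, and 10 lower and 5 higher with quantile scaling. At an unadjusted limma p of 0.05, 5 were lower and 2 higher, against 13.2% and 7% of all genes. None passed over all genes in limma. Pkp1, a plakophilin of desmosomes, was at 0 reads in the ginkgetin libraries and at 11.9, 4.16 and 89.0 normalized reads with vehicle, at least 10.0-fold lower against the same limit, a bound set mainly by vehicle replicate 3. It too met the filter through the vehicle libraries. Pkp3, another plakophilin, was higher in every ginkgetin library, at 227, 182 and 269.7 normalized reads with ginkgetin against 94.9, 123 and 67.5 with vehicle (log2 difference 1.26, limma adjusted p = 0.111). Evpl, envoplakin, had 0, 2.31 and 4.95 with ginkgetin and 8.30, 49.1 and 57.1 with vehicle. It met the filter on low values only with vehicle libraries counted, and both Pkp1 and Evpl are among the 5 lower genes. Itgb4, the integrin chain of hemidesmosomes, had 103, 47.4 and 47.0 with ginkgetin and 110.3, 273 and 272 with vehicle (log2 difference -1.70, limma adjusted p = 0.129). The desmosome core genes Dsp, desmoplakin (0.02), and Dsg2, a desmosomal cadherin (0.03), named after their values were seen, had close means in both groups. Their log2 differences were -0.45 and -0.40 without vehicle replicate 3.

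Intermediate filament genes other than keratins were mostly lower. Of 11 tested, 8 had lower means (median -0.93, and -0.83 without vehicle replicate 3), against 51.4% of all genes. At an unadjusted limma p of 0.05, 5 were lower and 0 higher, against 13.2% and 7% of all genes. Without vehicle replicate 3 these counts were 4 and 1, against 10% and 5.68%. Without ginkgetin replicate 2 or 3 the count of lower genes was 2, against 1355 and 1264 of all 14639 genes. Vim, vimentin of mesenchymal cells, had 1402, 648 and 573 normalized reads with ginkgetin and 1784, 2758 and 17856 with vehicle (log2 difference -2.47, and -1.46 without vehicle replicate 3). Des, desmin (-2.29, and -1.25 without that library), Nes, nestin (-2.92, and -1.96), and Nefh, a neurofilament chain of few reads (-2.00, and -1.62), were the others with the smallest p. Nefh met the filter on low values only with vehicle libraries counted, and it is among the 5 lower genes. Gfap, named after its values were seen, was higher in every ginkgetin library. It had 34.3, 61.3 and 60.6 normalized reads with ginkgetin and 30.8, 9.98 and 27.0 with vehicle (log2 difference 1.26, and 1.46 without vehicle replicate 3).

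Partners of keratins in inclusions and stress showed no common direction. Of 11 tested, 6 had lower and 5 higher means (median -0.08), and 3 were lower without vehicle replicate 3. Hspa8, a constitutive chaperone, had 378, 294 and 449 normalized reads with ginkgetin and 218, 82.3 and 115 with vehicle (log2 difference 1.52, limma adjusted p = 0.109). Bag3, a co-chaperone, differed by 0.65 and Cryab, a small heat shock protein, by -1.33, both without overlap. Hspb8, another small heat shock protein, was at 1.33, and at 0.49 without vehicle replicate 3. Sqstm1, the inclusion protein p62, named after its values were seen, had 6314, 7147 and 8329 with ginkgetin and 4832, 5099 and 4880.4 with vehicle, without overlap (0.55, but -0.07 with quantile scaling).

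**Figure D5:**
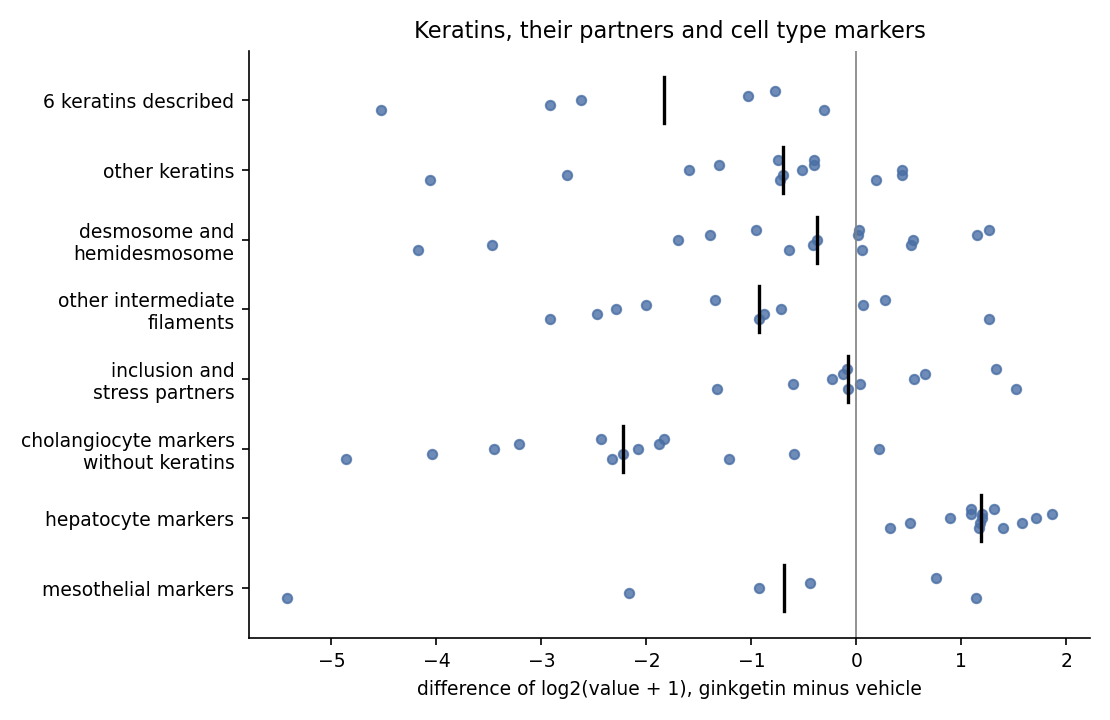
Difference of log2(value + 1) between ginkgetin and vehicle livers (horizontal axis) for every tested gene of the keratin lists and of 3 marker lists. Points are genes and black bars are list medians. The medians lie at -2.22 for cholangiocyte markers, -0.70 for other keratins, -0.37 for desmosome and hemidesmosome genes and 1.19 for hepatocyte markers.

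The genes most like each keratin were found by the root mean square difference of log2 values, centred on the gene's mean, over the 6 libraries, among 7304 genes with a mean above the median. For Krt8 these were Acsf2 (0.161 log2 units), Gabbr1 (0.166) and Atg16l2 (0.17), and for Krt18 they were Akr1c19 (0.176), Mapk8ip3 (0.182) and Magi3 (0.191). Krt8 and Krt18 themselves lay 0.371 apart, so these genes were nearer to each than the pair members were to each other. Krt19 was nearest to S100a11 (0.303), Fxyd5 (0.374) and Smoc2 (0.382), and it lay 1.501 from Krt7. Krt23 was nearest to Fhl2 (0.451), Fxyd6 (0.518) and Bicc1 (0.587). The nearest to Krt20 were Id1 (0.543), Ltbp4 (0.592) and Nab2 (0.594). Krt7 had the most distant matches of the 6, with Loxl1 at 0.923, Emp1 at 1.01 and Mmp2 at 1.05. Among the members Krt7 and Krt18 were the farthest apart, at 2.56. These distances rest on 6 libraries and describe them only.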

How the data were processed

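Liver RNA of 6 rat samples was sequenced, 3 per group, with SMARTER library reagents, per the labels' protocols. Per the submitters' processing notes, the build was mRatBN7.2. Which aligner, counter, annotation and strand setting were used is not given in the sources used here. The deposited values are a signal per gene, a read count divided by 1 factor per library, and the table does not name this normalization. Divided by the value of 1 read, the library's lowest value above 0, 99.67% of values per library came out whole (tolerance 0.02), which gave back reads.

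Ginkgetin columns were matched by their names. The remaining columns are called TAA, a name absent from the labels, and were taken as vehicle replicates 1 to 3 because no other group remains, so every direction rests on this. Spreadsheet dates stood in place of 24 gene names. No 2 libraries were duplicates (chi-square per degree of freedom at least 49.9).

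Groups were compared with limma 3.58.1 (R 4.3.3; trend, robust) using log2(value + 1). The 14639 genes tested reached 1 in no fewer than 3 libraries. Tests were two-sided with Benjamini-Hochberg adjustment at 0.05. Alternatives were other pseudocounts, filters and scalings, a replicate block, each library left out, and edgeR 4.0.16 and DESeq2 1.42.0 on recovered reads. Genes to be named were all members, up to 4 per list by smallest p, up to 4 per marker list by highest mean, Alb, and the 3 most similar genes per keratin. Members and lists were chosen with earlier results of these data known. Symbols of all 6 members and promoters of 4 were found in RefSeq tables of GRCr8. Figures were drawn with matplotlib 3.10.9.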

Additional observations from a re-analysis of the deposited data

How the results depend on the processing

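Over 16 alternative settings Krt7, Krt8, Krt19, Krt20 and Krt23 stayed lower with ginkgetin. With 1 library left out at a time their log2 differences ran from -5.25 to -3.78 for Krt7, -1.03 to -0.50 for Krt8, -3.36 to -2.20 for Krt19, -1.80 to -0.48 for Krt20 and -3.27 to -2.57 for Krt23. Krt18 ran from -0.64 to 0.03, and was higher only without vehicle replicate 2. Krt7 passed 0.05 with equal library totals (-5.00, adjusted p = 0.0455), where the median of all genes was shifted by -0.50, without vehicle replicate 1, and in DESeq2 (-4.58, adjusted p = 1.82e-05). DESeq2 also called Krt19 (-2.38, adjusted p = 0.017) and Krt23 (-3.27, adjusted p = 0.00292). Over all settings the adjusted p reached 0.259 for Krt7, 0.335 for Krt19 and 0.271 for Krt23. The duct keratins minus Krt8 and Krt18 gave -1.83 with quantile scaling and -3.29 to -2.20 with 1 library left out. The cause of these shifts was not tested.

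In limma 2 genes passed 0.05. A pseudocount of 5 gave 5, quantile scaling 1, equal library totals 94 and DESeq2 1380. For edgeR this was 0, and 2893 genes had an unadjusted p under 0.05, against 2963 for limma. Leaving out vehicle replicate 1 gave 696 and leaving out vehicle replicate 3 gave 84, while each other omission gave 0 in limma, with 1745 to 2808 at an unadjusted p of 0.05. Unadjusted limma calls split into 1025 higher and 1938 lower. Under quantile scaling 1117 were higher and 1397 lower, and under equal totals 347 were higher and 2955 lower. The median of the inclusion and stress partners turned to 0.17 without vehicle replicate 3, an alternative added after the data were seen.

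Deviations of samples of the same number had correlations across genes of -0.16, 0.03 and -0.21. For samples of unlike number they ran from -0.10 to 0.20. The labels do not say whether the numbers mark pairs, and so few correlations cannot decide it. With a replicate block 0 genes passed in limma (2382 at an unadjusted p of 0.05), Krt7 had an adjusted p of 0.212, and no keratin call changed. Depth limits Krt7 and Krt23, which had 1 to 14 reads per ginkgetin library.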
